A study of Homo sapiens with 12 samples.

Results

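The G2/M phase genes are 54 genes that cells transcribe most strongly between the end of DNA replication and the end of mitosis, taken from a published list of cell-cycle markers that was made on other cells. All 54 were found by symbol among the 45416 genes of the deposited table, and all 54 were among the 17982 genes that had enough reads to be tested. Their mean levels over all libraries ran from 21 CPM (CDC25C) to 598 CPM (MKI67), with a median of 89.1 CPM, where CPM is the authors' normalized read count, scaled to the size of each library. Reads on genes per library ranged from 17101069 (siPDL1-2 with IFNγ, replicate 1) to 55657393 (siNC with IFNγ, replicate 1).

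The samples were cultures of U251, an established human glioblastoma cell line, and gave 12 RNA-seq libraries, 2 for each of 6 groups. The 6 groups were the control siRNA (siNC) unstimulated, siNC with IFNγ, the first siRNA against PD-L1 (siPDL1-1) unstimulated, siPDL1-1 with IFNγ, the second siRNA (siPDL1-2) unstimulated, and siPDL1-2 with IFNγ. Per the study's methods, cells were kept for 48 h after transfection, and the stimulated cultures then received IFNγ at 100 U/ml for 24 h. All groups share the transfection and the cell line, so the values describe 1 line and 2 siRNA sequences. The study names 2 independent experiments. The p-values rest on the spread between the 2 libraries of a group, estimated over all 6 groups together with information shared between genes.

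Entry into mitosis is driven by CDK1 bound to a B-type cyclin, and exit from it by the anaphase-promoting complex, which is switched on by CDC20 and works with the ubiquitin-conjugating enzyme UBE2C. Between these steps the Aurora kinases, the kinetochore and the spindle motors align and separate the chromosomes. Most genes of this set are repressed outside G2 and M by the DREAM complex and activated by B-MYB and FOXM1, through a promoter element called the cell cycle genes homology region (CHR, written TTTGAA or TTCGAA) and through CCAAT boxes bound by NF-Y. In tumours such as glioblastoma the level of these transcripts is widely used as a measure of proliferation.

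The promoter windows of 4 members are shown because these genes carry the main patterns below. CCNB2 and CDC20 fell with both siRNAs, HMMR moved against the rest of the set, and PSRC1 rose with IFNγ. Each window runs from 250 bases before to 50 bases after the RefSeq transcription start, 5′ to 3′ on the strand of the gene (GRCh38.p14), and capitals mark the CHR letters and the CCAAT letters, on either strand.
CCNB2 (chr15:59104896-59105195, plus strand): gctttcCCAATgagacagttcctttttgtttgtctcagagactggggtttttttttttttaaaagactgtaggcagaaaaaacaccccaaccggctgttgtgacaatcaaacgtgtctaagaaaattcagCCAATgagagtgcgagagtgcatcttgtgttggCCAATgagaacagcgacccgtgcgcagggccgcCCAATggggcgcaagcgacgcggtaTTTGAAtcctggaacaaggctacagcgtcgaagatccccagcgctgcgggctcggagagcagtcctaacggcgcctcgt
CDC20 (chr1:43358731-43359030, plus strand): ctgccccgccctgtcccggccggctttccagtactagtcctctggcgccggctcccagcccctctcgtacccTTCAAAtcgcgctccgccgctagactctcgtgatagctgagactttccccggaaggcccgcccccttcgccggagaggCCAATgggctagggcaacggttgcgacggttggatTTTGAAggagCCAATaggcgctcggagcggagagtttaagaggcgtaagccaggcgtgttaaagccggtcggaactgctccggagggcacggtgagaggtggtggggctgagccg
HMMR (chr5:163460382-163460681, plus strand): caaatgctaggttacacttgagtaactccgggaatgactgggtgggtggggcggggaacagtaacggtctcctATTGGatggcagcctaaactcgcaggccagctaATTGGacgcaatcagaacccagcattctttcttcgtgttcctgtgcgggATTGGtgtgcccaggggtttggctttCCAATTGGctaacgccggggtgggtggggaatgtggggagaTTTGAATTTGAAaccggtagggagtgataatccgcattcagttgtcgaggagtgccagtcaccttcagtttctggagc
PSRC1 (chr1:109283096-109283395, minus strand): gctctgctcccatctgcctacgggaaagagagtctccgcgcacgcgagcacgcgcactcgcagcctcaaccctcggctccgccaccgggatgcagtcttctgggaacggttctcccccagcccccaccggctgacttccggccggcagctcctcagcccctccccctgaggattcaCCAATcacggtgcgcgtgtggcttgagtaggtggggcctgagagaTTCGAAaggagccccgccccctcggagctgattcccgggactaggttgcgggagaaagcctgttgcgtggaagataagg
RefSeq gave a window for 45 of the 54 members. TTTGAA or TTCGAA, read on both strands, was held by 35 of the 45 members (77.8%) and by 19.5% of the 27305 genes with a window. CCAAT was held by 71.1% of the members and 39.7% of all genes, and both elements together by 62.2% and 7.85%. In CCNB2 the element TTTGAA begins at position -29 from the start site and 4 CCAAT matches lie upstream, whereas HMMR holds the element in tandem, at -28 and -22.

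The siRNA target was checked first. PD-L1 is listed as CD274 (ENSG00000120217). In unstimulated cells it was 4.60 and 4.91 CPM with siNC, 2.67 and 2.73 CPM with siPDL1-1, and 3.57 and 3.45 CPM with siPDL1-2. After IFNγ it was 71.2 and 76.0 CPM with siNC, 61.0 and 66.7 CPM with siPDL1-1, and 37.5 and 35.0 CPM with siPDL1-2. The groups did not overlap in either state, but siPDL1-1 after IFNγ was 0.20 lower on the log2 scale and missed the threshold used here (FDR = 0.0498 from limma), whereas siPDL1-2 was 1.001 lower (FDR = 4.25e-07). The difference between the siRNAs was 0.80 (FDR = 3.07e-06). In unstimulated cells the order was the other way, with log2 fold changes of -0.64 for siPDL1-1 and -0.35 for siPDL1-2, and the difference of -0.29 was called (FDR = 0.00865). For the cell type, VIM was between 3139 and 3968 CPM in all 12 libraries, and EGFR, SOX2, NES and CD44 were above 100 CPM, whereas GFAP, the astrocyte filament gene, was between 1.92 and 7.25 CPM. With S100B these are 7 line markers. Without stimulation siPDL1-1 lowered 2 and raised 2 of them, against 8.99% and 9.8% of all genes. There siPDL1-2 lowered 1 and raised 5, against 11.9% and 16.5%. GFAP and S100B were called higher with both siRNAs in that state. After IFNγ siPDL1-1 lowered 1 and raised 1 of the 7, against 12.2% and 11.6% of all genes. There siPDL1-2 lowered 0 and raised 1, against 9.75% and 8.6%. GFAP was then called higher with siPDL1-1 (log2 fold change 0.53) and not with siPDL1-2 (-0.24). S100B was not called after IFNγ with either siRNA (0.09 and 0.37). Markers of leukocytes, endothelium, epithelium, neurons and oligodendrocytes (PTPRC, CD3E, PECAM1, EPCAM, RBFOX3 and MOG) were all below 1 CPM in every library.

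Both siRNAs lowered the G2/M phase genes, in unstimulated and in stimulated cells. Summed over the 54 members, the level was 8338 and 8295 CPM in unstimulated siNC, 5854 and 5900 CPM with siPDL1-1, and 6665 and 6626 CPM with siPDL1-2. After IFNγ the sums were 7972 and 8086 CPM with siNC, 5172 and 5297 CPM with siPDL1-1, and 5995 and 5937 CPM with siPDL1-2. The siPDL1-1 libraries were lowest, the siNC libraries highest and the siPDL1-2 libraries between them in both states, with no overlap. Relative to siNC in the same state, the mean sum was 29.3% lower with siPDL1-1 and 20.1% lower with siPDL1-2 without stimulation, and 34.8% and 25.7% lower after IFNγ. In bulk RNA, fewer cells in G2 or M and less of these transcripts per cell cannot be told apart.

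**Figure D1:**
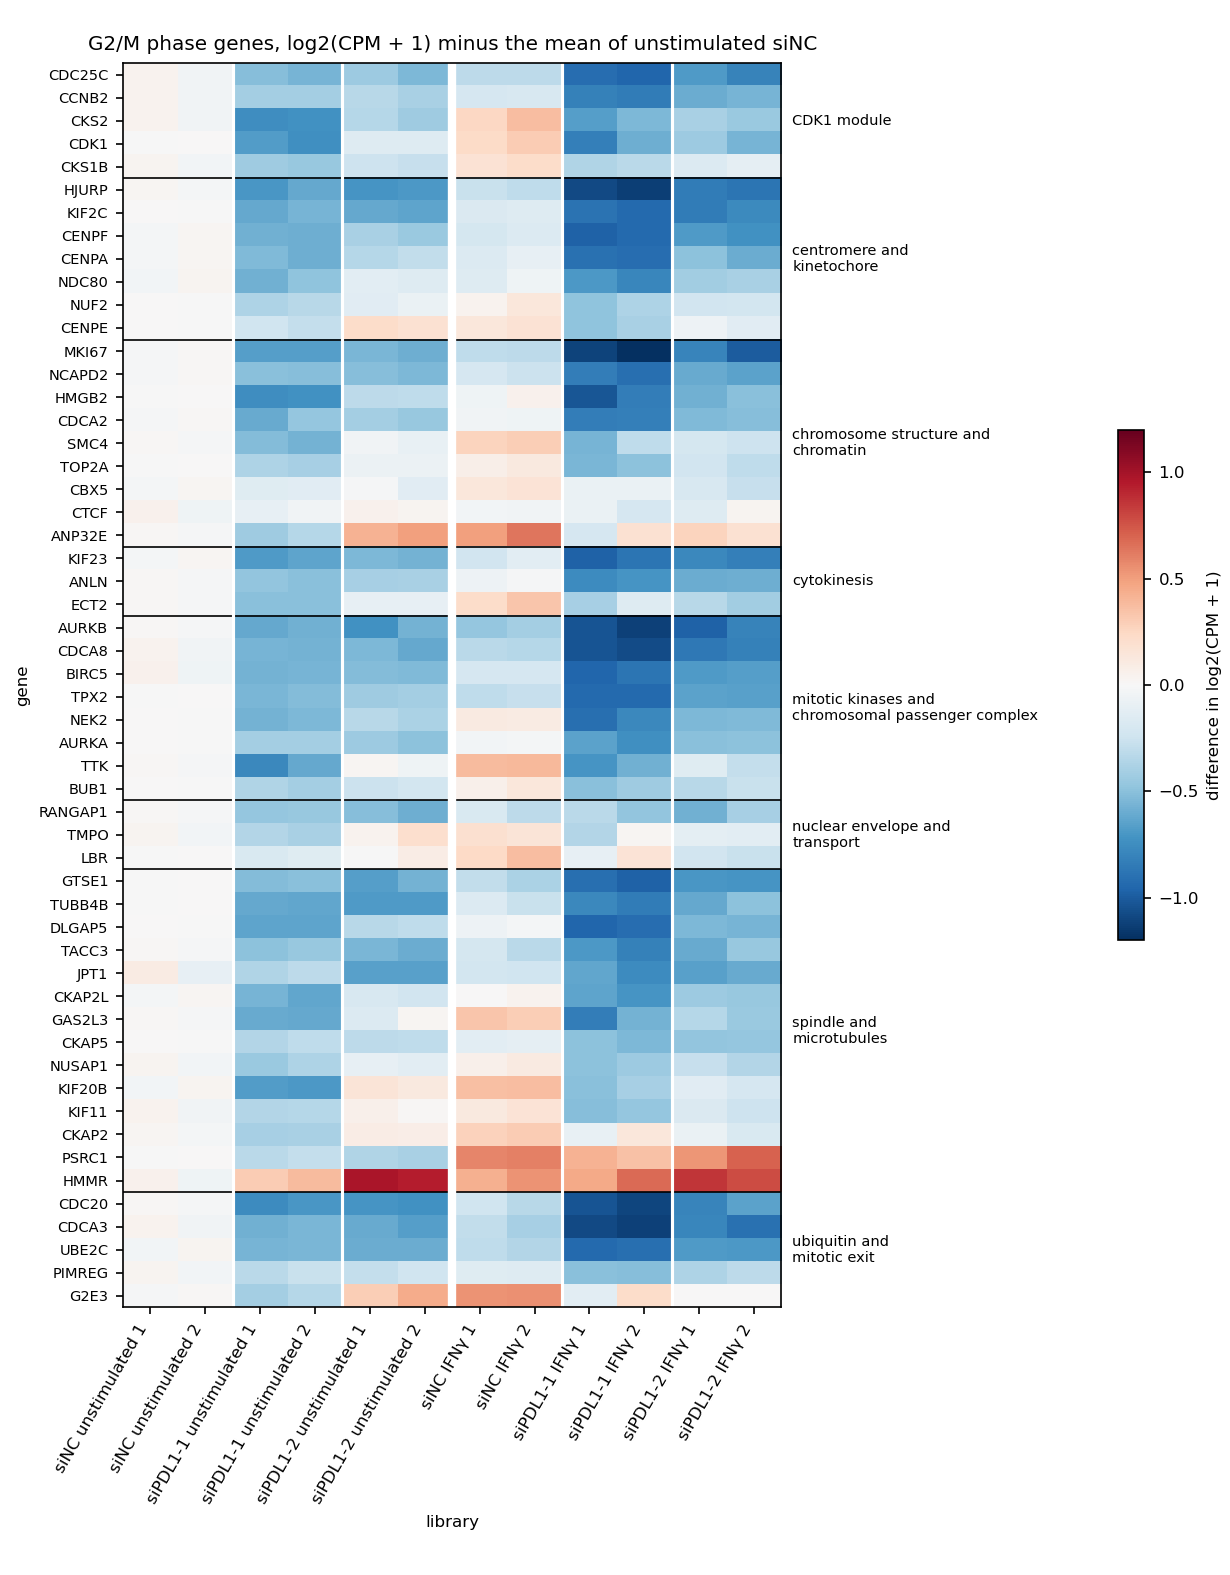
Each row is 1 of the 54 genes, grouped by role, and each column 1 of the 12 libraries. Colour is log2(CPM + 1) minus the mean of the 2 unstimulated siNC libraries (blue lower, red higher). Most rows are blue in all 8 siPDL1 libraries, HMMR is red in all 8, and some rows, among them ANP32E, G2E3 and PSRC1, are red in part of them.

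Gene by gene, log2(CPM + 1) was compared between groups with limma over all genes, and a gene was called at a Benjamini-Hochberg FDR below 0.01. In unstimulated cells siPDL1-1 lowered 48 of the 54 members and raised 1, with a median log2 fold change of -0.52. Among all genes tested 8.99% were called lower and 9.8% higher, with a median of 0.02. With siPDL1-2, 34 members fell and 4 rose, with a median of -0.32, against 11.9% of all genes lower and 16.5% higher (median 0.03). The 4 that rose were HMMR, G2E3, CENPE and ANP32E. HMMR alone stayed called without either unstimulated siNC library or without siPDL1-2 unstimulated replicate 2, and 2 of the 4 were called with edgeR. After IFNγ, siPDL1-1 lowered 50 members and raised none (median -0.63), where 12.2% of all genes were called lower and 11.6% higher. With siPDL1-2 after IFNγ, 48 members fell and 1 rose (median -0.43), where 9.75% of all genes were called lower and 8.6% higher. CTCF, HMMR and TMPO were not called lower in any of the 4. When each library was left out in turn, 6 of 49, 6 of 38, 5 of 50 and 6 of 49 called members lost their call at least once, in the order given, among them PIMREG in 3 of the comparisons. Both siRNAs were compared with the same 2 siNC libraries of each state, so their counts are not independent of each other.

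The changes were moderate in size. At a fold change above 1.5, the threshold of the study, 15 members remained called lower with siPDL1-1 and 9 with siPDL1-2 in unstimulated cells, against 1.45% and 1.33% of all genes. After IFNγ the counts were 35 and 9 members, against 1.75% and 1.2% of all genes. The standard deviation between the 2 libraries of a group had a median over members of 1.6% to 4% of the mean, depending on the group. The comparisons of the same siRNA in unstimulated and in stimulated cells rest on different libraries. For siPDL1-1 all 54 members had the same sign in both states, with r = 0.85 across members, and for siPDL1-2 44 did, with r = 0.35. These correlations are across genes, which share the libraries and are not independent.

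**Figure D2:**
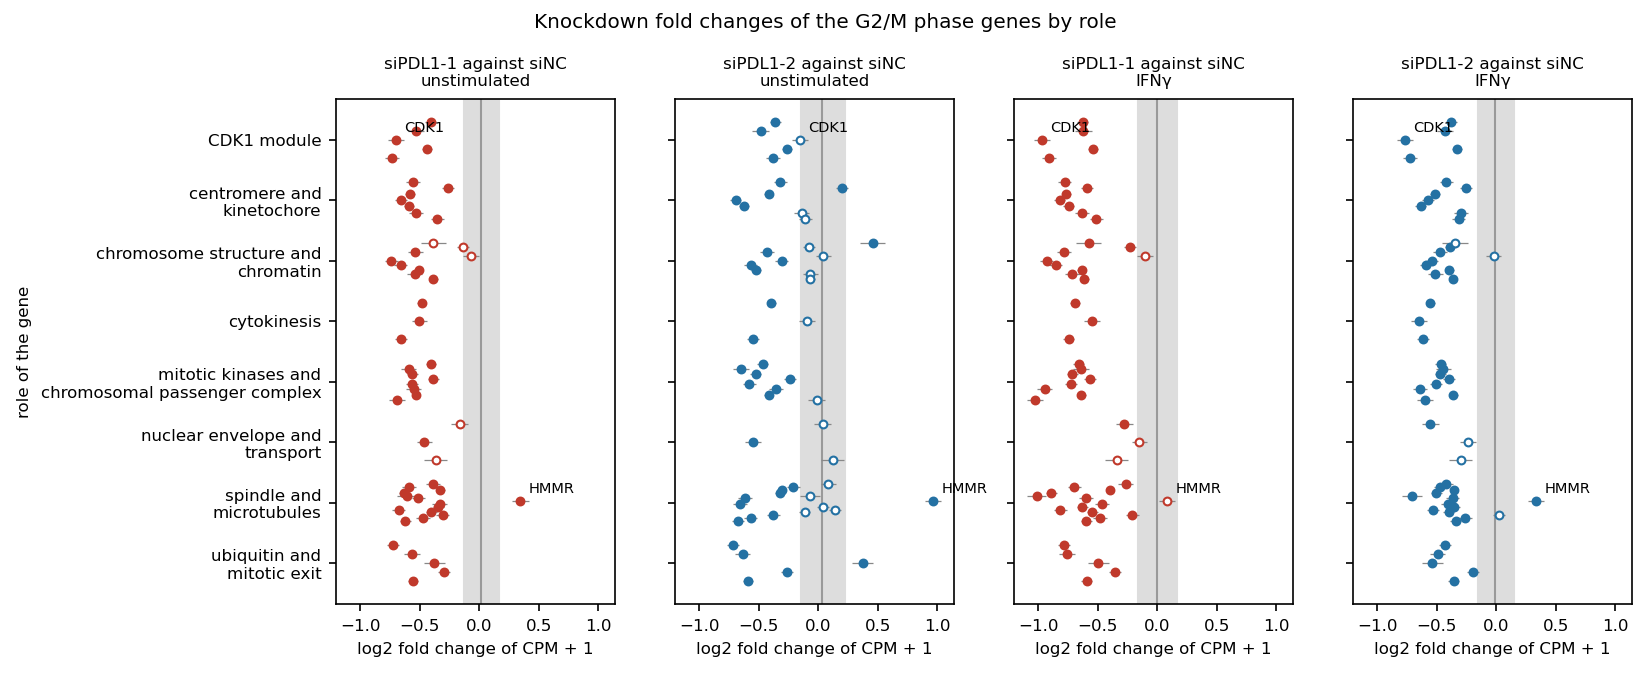
Log2 fold changes of CPM + 1 (x axis, horizontal bars are 1 standard error) for the 54 members by role, in each siRNA against siNC comparison. Filled points passed FDR < 0.01, open points did not, the grey band is the middle 50% of all genes tested and the grey line their median. In the siPDL1-1 panels almost all points lie left of the band, and HMMR lies right of it in the unstimulated panels.

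The CDK1 module comprises the kinase CDK1, its cyclin CCNB2, the small subunits CKS1B and CKS2 and the activating phosphatase CDC25C. With siPDL1-1 all 5 fell in both states, and with siPDL1-2 4 of 5 fell without stimulation and 5 of 5 after IFNγ. CDK1 (ENSG00000170312, chr10:60778331-60794852, plus strand, GRCh38) was 121 and 122 CPM in unstimulated siNC, 76.1 and 72.4 CPM with siPDL1-1 and 109 CPM in both siPDL1-2 libraries. After IFNγ it was 142 and 150 CPM with siNC, 68.4 and 80.5 CPM with siPDL1-1, and 89.1 and 82.3 CPM with siPDL1-2. Every siPDL1 library was below every siNC library of its state, but the siPDL1-2 decrease in unstimulated cells was small. The log2 fold changes were -0.70 and -0.15 without stimulation, of which the second was not called (standard error 0.065, FDR = 1.79e-06 and 0.0763 from limma), and -0.97 and -0.76 after IFNγ (FDR = 3.84e-08 and 1.37e-06). CKS2 was called lower in all 4 comparisons, with log2 fold changes of -0.74 and -0.38 without stimulation and -0.91 and -0.72 after IFNγ. CCNB2 fell from 108 and 101 CPM in unstimulated siNC to 78.5 and 78.2 CPM with siPDL1-1 and to 82.9 and 79.2 CPM with siPDL1-2. Its log2 fold changes were -0.41 and -0.36 there and -0.63 and -0.38 after IFNγ. CKS1B gave -0.44, -0.27, -0.54 and -0.33 in the same order. CDC25C overlaps FAM53C, whose mean level was 334% of its own, and reads from both strands were counted, so its values may include reads of that gene. The same holds for TACC3 with TMEM129 (81.5%), NCAPD2 with MRPL51 (36.1%) and PIMREG with PITPNM3 (34.8%). It also holds for SMC4 with IFT80 (22.1%), NUF2 with RGS5_1 (13.2%) and CDCA3 with GNB3 (10.6%). JPT1 overlaps SUMO2 (240%) on the same strand, and its values may also include reads of that gene.

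Genes of ubiquitin transfer and mitotic exit fell with siPDL1-1 in 5 of 5 cases in both states. CDC20 (ENSG00000117399, chr1:43358981-43363203, plus strand), the activator of the anaphase-promoting complex, was 212 and 208 CPM in unstimulated siNC, 124 and 129 CPM with siPDL1-1, and 128 and 127 CPM with siPDL1-2. After IFNγ it was 177 and 167 CPM with siNC, 102 and 97.5 CPM with siPDL1-1, and 121 and 134 CPM with siPDL1-2. The siNC libraries were above all others in each state. CDC20 fell by 0.73 and 0.71 on the log2 scale without stimulation (FDR = 1.14e-07 and 1.06e-07 from limma) and by 0.78 and 0.43 after IFNγ (FDR = 2.51e-08 and 2.5e-05). UBE2C, the conjugating enzyme of the same reaction, gave -0.56, -0.59, -0.59 and -0.36. CDCA3, an F-box-like protein, gave -0.56, -0.64, -0.76 and -0.49, and PIMREG -0.30, -0.26, -0.36 and -0.20. G2E3, a ubiquitin ligase, was the exception: siPDL1-2 raised it in unstimulated cells, from 27.6 and 28.2 CPM to 34.6 and 38.3 CPM (log2 fold change 0.37, FDR = 0.00374 from limma), and lowered it after IFNγ, from 40.9 and 41.4 CPM to 28.1 and 28.0 CPM (-0.54, FDR = 0.000393). The increase was not called without siNC unstimulated replicate 1 or 2, without siPDL1-2 unstimulated replicate 2 or with no filter on low reads. It turned to -0.21 once trends on transcript GC content and length were removed together, as described below.

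All 8 genes of the mitotic kinases and the chromosomal passenger complex fell with siPDL1-1 in both states, 7 of 8 with siPDL1-2 in unstimulated cells and 8 of 8 after IFNγ. Both Aurora kinases were called lower in all 4 comparisons. AURKA, which matures the spindle poles, was 111 CPM in both unstimulated siNC libraries, 83.6 and 83.5 CPM with siPDL1-1, and 81.8 and 78.6 CPM with siPDL1-2. AURKB, the kinase of the passenger complex, was 107 and 105 CPM with siNC, 68.7 and 70.7 CPM with siPDL1-1, and 63.3 and 71.2 CPM with siPDL1-2. The log2 fold changes were -0.41 and -0.47 for AURKA and -0.59 and -0.65 for AURKB. After IFNγ, AURKA was at -0.66 and -0.47 and AURKB at -0.64 and -0.44. BIRC5 (survivin), a subunit of the same complex, gave -0.56, -0.52, -0.71 and -0.47. TTK, the kinase that starts the spindle checkpoint, differed between the siRNAs. It was 43.9 and 43.1 CPM in unstimulated siNC, 25.1 and 28.1 CPM with siPDL1-1, and 44.3 and 41.9 CPM with siPDL1-2. After IFNγ it was 56.9 and 57.1 CPM with siNC, 26.2 and 28.8 CPM with siPDL1-1, and 39.2 and 35.6 CPM with siPDL1-2. The largest decrease of any member, -1.03 (standard error 0.069, FDR = 3.44e-08 from limma), was that of TTK with siPDL1-1 after IFNγ. BUB1, a second checkpoint kinase, had the smallest changes of this role in stimulated cells with siPDL1-1, at -0.56. NEK2, which separates the centrosomes, gave -0.55, -0.36, -0.95 and -0.64.

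At the centromere and kinetochore, siPDL1-1 lowered 7 of 7 genes in both states and siPDL1-2 4 of 7 without stimulation and 7 of 7 after IFNγ. HJURP, the chaperone that deposits the centromeric histone, fell from 117 and 113 CPM in unstimulated siNC to 70.6 and 74.9 CPM with siPDL1-1 and to 70.4 and 71.3 CPM with siPDL1-2 (log2 fold changes -0.66 and -0.70, FDR = 1.44e-07 and 6.47e-08 from limma). After IFNγ it gave -0.82 and -0.57. CENPA, that histone itself, gave -0.56 and -0.32 without stimulation and -0.78 and -0.42 after IFNγ. CENPA overlaps SLC35F6 on the same strand, whose mean level was 133% of its own. KIF2C, a microtubule depolymerase, gave -0.59, -0.62, -0.75 and -0.64, and was the most reduced of the role with siPDL1-2 after IFNγ. CENPE, a kinetochore motor, was the least reduced with siPDL1-1 in unstimulated cells (-0.26). It rose with siPDL1-2 there, from 62.9 and 62.2 CPM to 73.0 and 70.9 CPM (0.20, FDR = 0.00607). That increase was not called with edgeR or DESeq2, nor without any 1 of the 6 unstimulated libraries, and gave -0.26 with the GC and length trends removed. The calls of CENPE with siPDL1-1 in unstimulated cells and with siPDL1-2 after IFNγ were also lost without 1 library.

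The spindle and microtubule genes were the largest role group, with 14 members. With siPDL1-1, 13 fell and 1 rose without stimulation, and 13 fell after IFNγ. With siPDL1-2, 8 fell and 1 rose without stimulation, and 12 fell and 1 rose after IFNγ. TUBB4B, a beta-tubulin, fell from 330 and 331 CPM in unstimulated siNC to 215 and 213 CPM with siPDL1-1 and to 206 CPM in both siPDL1-2 libraries (log2 fold changes -0.62 and -0.68). GAS2L3, a linker of actin and microtubules, fell most of this role after IFNγ, from 40.2 and 39.2 CPM to 17.4 and 21.1 CPM with siPDL1-1 (-1.01) and to 24.7 and 23.1 CPM with siPDL1-2 (-0.71). DLGAP5, a spindle assembly factor, gave -0.63, -0.32, -0.89 and -0.50. CKAP5, a microtubule polymerase, was lowered evenly in the 4 comparisons (-0.33, -0.31, -0.40 and -0.36).

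HMMR (ENSG00000072571, chr5:163460203-163491941, plus strand), the hyaluronan-mediated motility receptor that also binds spindle microtubules, moved against the set. It was 48.9 and 45.5 CPM in unstimulated siNC, 58.5 and 61.8 CPM with siPDL1-1, and 94.3 and 91.8 CPM with siPDL1-2. After IFNγ it was 63.8 and 69.0 CPM with siNC, 65.2 and 76.0 CPM with siPDL1-1, and 86.3 and 81.9 CPM with siPDL1-2. Both siPDL1-2 groups were above siNC in the same state with no overlap, as was siPDL1-1 without stimulation, whereas siPDL1-1 and siNC overlapped after IFNγ. The log2 fold changes were 0.34 with siPDL1-1 (FDR = 0.0014 from limma) and 0.97 with siPDL1-2 (FDR = 9.14e-08) in unstimulated cells, and 0.08 (FDR = 0.381) and 0.34 (FDR = 0.00179) after IFNγ. HMMR-AS1, on the opposite strand of HMMR, averaged 0.00552 CPM, against 70.3 CPM for HMMR. With the trends on GC content and length removed, HMMR was at 0.37, 0.59, 0.21 and 0.51, and all 4 values were called. No other member was called higher with siPDL1-1 in unstimulated cells, and that call was lost without siNC unstimulated replicate 2 or siPDL1-1 unstimulated replicate 2. The call with siPDL1-2 after IFNγ was lost without siNC IFNγ replicate 1 or siPDL1-2 IFNγ replicate 1, and the call with siPDL1-2 in unstimulated cells was kept whichever library was left out. The promoter window of HMMR holds TTTGAA and CCAAT, as do those of CCNB2 and CDC20, whereas KIF2C and TACC3, which also fell, hold neither.

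**Figure D3:**
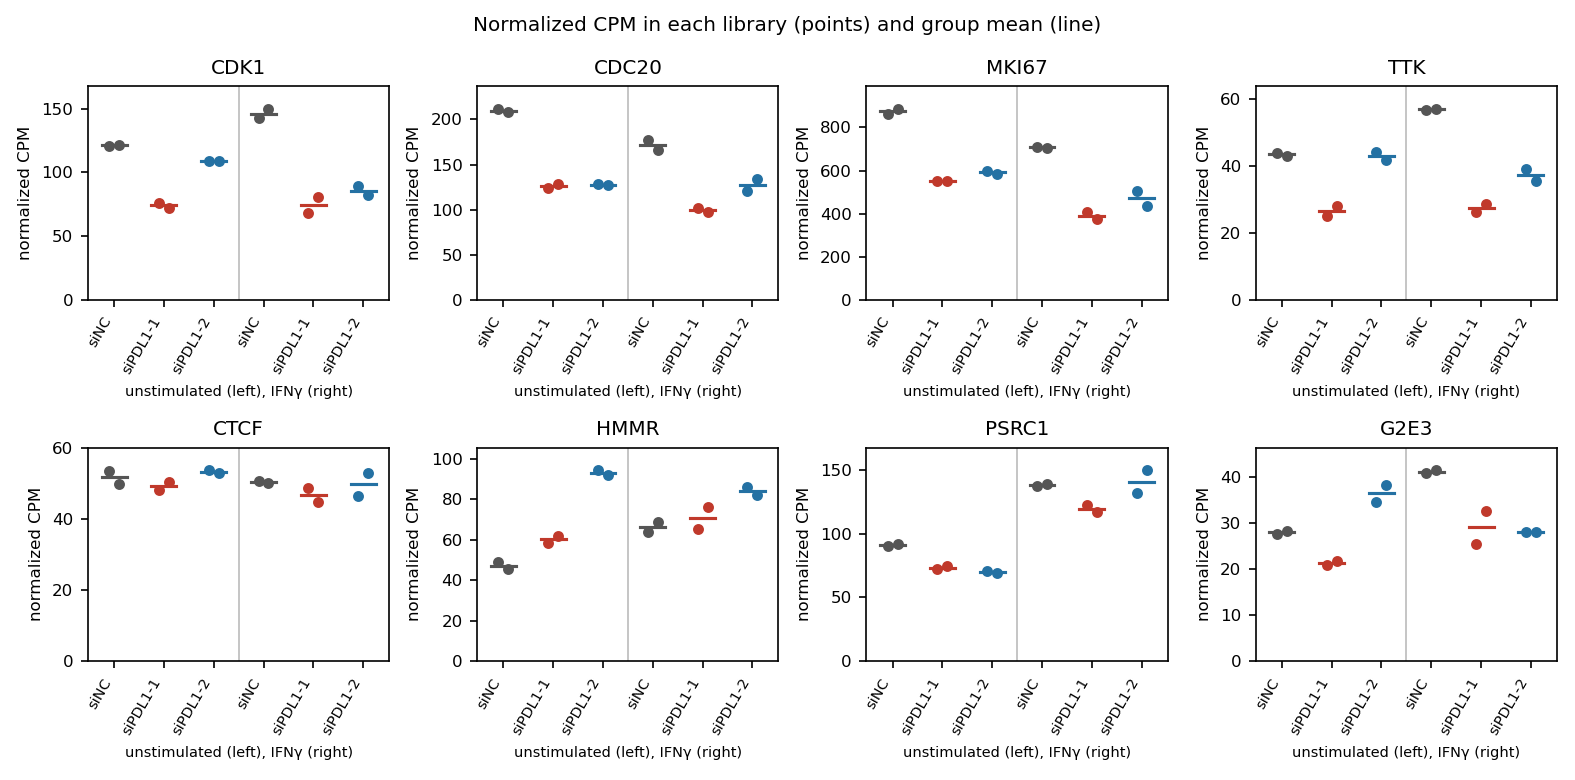
Normalized CPM (y axis, from 0) of 8 members in each library (points) with the group mean (line), unstimulated on the left and IFNγ on the right of each panel. CDK1, CDC20, MKI67 and TTK are lower with siPDL1-1 than with siNC, CTCF is level, HMMR is higher with siPDL1-2, PSRC1 is higher in all IFNγ groups, and G2E3 changes side with IFNγ for siPDL1-2.

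The 3 cytokinesis genes fell in all comparisons but 1. ANLN, the scaffold of the cleavage furrow, gave -0.48, -0.39, -0.69 and -0.55, and KIF23, the motor of the central spindle, -0.66, -0.55, -0.75 and -0.62. ECT2, the exchange factor that activates RHOA at the furrow, was called lower in 3 of the 4 comparisons (-0.50, -0.55 and -0.65) and was at -0.10 with siPDL1-2 in unstimulated cells (FDR = 0.262 from limma).

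Genes of chromosome structure and chromatin were mixed. With siPDL1-1, 6 of 9 fell without stimulation and 8 of 9 after IFNγ, and with siPDL1-2 the counts were 4 (with 1 higher) and 7. MKI67, the coat protein of mitotic chromosomes known as Ki-67, was 864 and 886 CPM in unstimulated siNC, 553 CPM in both siPDL1-1 libraries, and 599 and 583 CPM with siPDL1-2. After IFNγ it was 710 and 705 CPM with siNC, 405 and 377 CPM with siPDL1-1, and 505 and 437 CPM with siPDL1-2. The siRNA groups did not overlap in either state, and the log2 fold changes were -0.66, -0.57, -0.85 and -0.59 (FDR = 6.81e-07, 2.33e-06, 3.04e-08 and 3.68e-06 from limma). TOP2A, the topoisomerase that untangles sister chromatids, fell with siPDL1-1 (-0.39 and -0.61) and with siPDL1-2 after IFNγ (-0.36), and was at -0.07 with siPDL1-2 alone (FDR = 0.159). HMGB2, a DNA-bending protein, gave -0.74, -0.31, -0.93 and -0.54. With siPDL1-1, CTCF and CBX5 changed least of this role. CTCF, the insulator protein, was between 44.9 and 53.6 CPM in all 12 libraries and was called in no comparison. CBX5, heterochromatin protein 1 alpha, was at -0.14 and -0.08 without stimulation and was called lower after IFNγ at -0.23 and -0.38, the first of which was not called without siNC IFNγ replicate 2. ANP32E, a histone chaperone, was called higher with siPDL1-2 in unstimulated cells (0.46, FDR = 0.00647), at 141 and 148 CPM against 106 and 104 CPM. It was not called with edgeR or without any 1 of the unstimulated siNC and siPDL1-2 libraries, and gave 0.06 with the GC and length trends removed.

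Of the nuclear envelope and transport genes, RANGAP1, the activator of the Ran GTPase, was called lower in unstimulated cells (-0.46 and -0.55). It was at -0.15 and -0.24 after IFNγ and was not called there, and the difference between states was not called for either siRNA (0.31 each, FDR = 0.0861 and 0.0181 from limma). LBR, the lamin B receptor, was called lower after IFNγ (-0.28 and -0.55) and was at -0.16 and 0.04 without it. The siPDL1-1 call of LBR was lost in 10 of the 12 fits that left out 1 library. TMPO, a lamina-associated protein, was not called in any of the 4 comparisons, at -0.37, 0.12, -0.34 and -0.30.

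The siRNAs differed from each other. Without stimulation 24 members were lower and 1 (JPT1) was higher with siPDL1-1 than with siPDL1-2, against 14.2% and 9.89% of all genes. JPT1 was not called without siPDL1-1 or siPDL1-2 unstimulated replicate 2. After IFNγ 27 members were lower and none higher, against 4.52% and 5.94% of all genes. This count was 7 with the 3 IFNγ groups fitted alone and 15 without siPDL1-2 IFNγ replicate 2. The largest differences without stimulation were those of ANP32E (-0.84), KIF20B (-0.82), G2E3 (-0.75), TTK (-0.68) and HMMR (-0.62). After IFNγ they were those of TTK (-0.43), DLGAP5 (-0.39), HMGB2 (-0.39) and CENPA (-0.36). With the GC and length trends removed, the counts became 9 lower and 2 higher without stimulation and 41 lower and 1 higher after IFNγ. In that fit 8.12% of all genes were lower and 9.22% higher without stimulation, and 10.1% and 8.04% after IFNγ.

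With IFNγ, members of the set moved in both directions with siNC, and the calls were mostly decreases with siPDL1-1 and siPDL1-2. With siNC, 20 members fell and 14 rose after IFNγ (median log2 fold change -0.04), against 9.34% of all genes lower and 17.9% higher. With siPDL1-1, 27 fell and 4 rose (median -0.19), against 8.49% and 14.4% of all genes. With siPDL1-2, 24 fell and 1 rose (median -0.20), against 7.56% and 9.57%. The counts that rose with siPDL1-1 and siPDL1-2 were below the shares of all genes. Without 1 of 3 siNC libraries the siNC count of 34 dropped to between 16 and 19, and without 1 of the 4 siPDL1-2 libraries the siPDL1-2 count of 25 dropped to between 5 and 14. MKI67 fell in all 3 (-0.31, -0.50 and -0.33), as did CCNB2 (-0.20, -0.41 and -0.21). AURKB fell with siNC and siPDL1-1 (-0.44 and -0.48) and was at -0.23 with siPDL1-2 (FDR = 0.0137 from limma). CDK1 rose with siNC (0.27, FDR = 0.00451), was at 0.00 with siPDL1-1 (FDR = 0.996) and fell with siPDL1-2 (-0.34, FDR = 0.00116). CKS1B and CKS2 rose with siNC (0.20 and 0.31). With the GC and length trends removed CDK1 was called lower in all 3 siRNA groups, at -0.21, -0.36 and -0.23, and CKS1B and CKS2 were not called with siNC (0.10 and 0.11). The siNC calls of CDK1, CCNB2, CKS1B and CKS2 and the siPDL1-2 calls of CDK1 and CCNB2 were each lost without 1 library, and those of MKI67 and AURKB were not.

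PSRC1 (ENSG00000134222, chr1:109279556-109283186, minus strand), a spindle protein that promotes microtubule growth, was the only member past 1.5-fold with IFNγ. It was 90.6 and 91.6 CPM in unstimulated siNC and 137 and 139 CPM after IFNγ. With siPDL1-1 it went from 72.4 and 74.3 CPM to 122 and 117 CPM, and with siPDL1-2 from 70.6 and 69.2 CPM to 132 and 149 CPM. The stimulated libraries were above the unstimulated ones in all 3 siRNA groups. The log2 fold changes were 0.59, 0.69 and 0.99 (standard error 0.054, FDR = 5.78e-07, 9.39e-08 and 1.58e-09 from limma), and they were 0.63, 0.71 and 0.92 with the GC and length trends removed. In unstimulated cells PSRC1 was lowered by both siRNAs (-0.31 and -0.38), the first of which was not called without siPDL1-1 unstimulated replicate 1. In stimulated cells it was at -0.21 with siPDL1-1 (FDR = 0.00744 from limma), a call lost in 9 of the 12 fits that left out 1 library, and at 0.02 with siPDL1-2 (FDR = 0.794).

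Whether the effect of a siRNA changed with IFNγ was tested as the difference of its log2 fold changes. For siPDL1-1 limma called 0 members, with 24 at an unadjusted p under 0.05, 23 of them negative. At the same FDR edgeR called 0 and DESeq2 called 1. Among all genes 0.378% were called lower and 1.25% higher. For siPDL1-2, 17 members were called lower and 3 higher, against 11.9% and 5.16% of all genes. The differences were largest in G2E3 (-0.91), ANP32E (-0.80), KIF20B (-0.67), GAS2L3 (-0.64), HMMR (-0.63) and CDK1 (-0.61), and PSRC1 (0.40), TUBB4B (0.33) and CDC20 (0.28) differed the other way. The 3 called higher were near the share of all genes. Of the 20 calls, 8 were lost when 1 library was left out (ANP32E, CBX5, CDC20, CKS2, NUSAP1, PSRC1, SMC4 and TUBB4B).

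The GC content of the transcripts moved with several of these comparisons. Over the 54 members, r between GC content and the log2 change was 0.92 for the siPDL1-2 difference between states, -0.74 for siPDL1-2 in unstimulated cells, -0.70 for IFNγ with siNC, and 0.83 for siPDL1-1 against siPDL1-2 without stimulation. It was 0.53 and -0.46 for IFNγ with siPDL1-2 and siPDL1-1, and 0.51 for the siPDL1-1 difference between states. For the remaining siRNA comparisons with siNC it was between -0.14 and 0.24, and for siPDL1-1 against siPDL1-2 after IFNγ -0.07. The points are genes measured in the same libraries, and over 17922 genes r was 0.65, -0.41, -0.34 and 0.60 for the first 4, 0.42 and 0.32 for siPDL1-2 and siPDL1-1 against siNC after IFNγ, and between -0.20 and 0.23 for the other 5. The members have a median GC content of 42.1%, against 48.7% for all genes. With the trend of each library on GC content and transcript length removed, a step chosen after seeing the data that would also remove real changes related to GC content, siPDL1-1 lowered 51 members in unstimulated cells (median -0.53), and siPDL1-2 50 (median -0.47), against 15.4% and 17.8% of all genes in the same fit. After IFNγ the counts were 51 with siPDL1-1 and 47 with siPDL1-2, against 16.5% and 11.9%. IFNγ then lowered 35 members with siNC, 41 with siPDL1-1 and 25 with siPDL1-2, where 14.2%, 16.5% and 10.3% of all genes were called lower. It raised PSRC1 alone, where 11.9%, 11.3% and 11.1% of all genes were called higher, and CDK1 and TOP2A gave -0.21 and -0.20 with siNC. The siPDL1-2 difference between states kept 0 of the lower calls and had 4 higher, against 3.54% and 3.93% of all genes. The part of GC content in these comparisons was not tested.

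**Figure D4:**
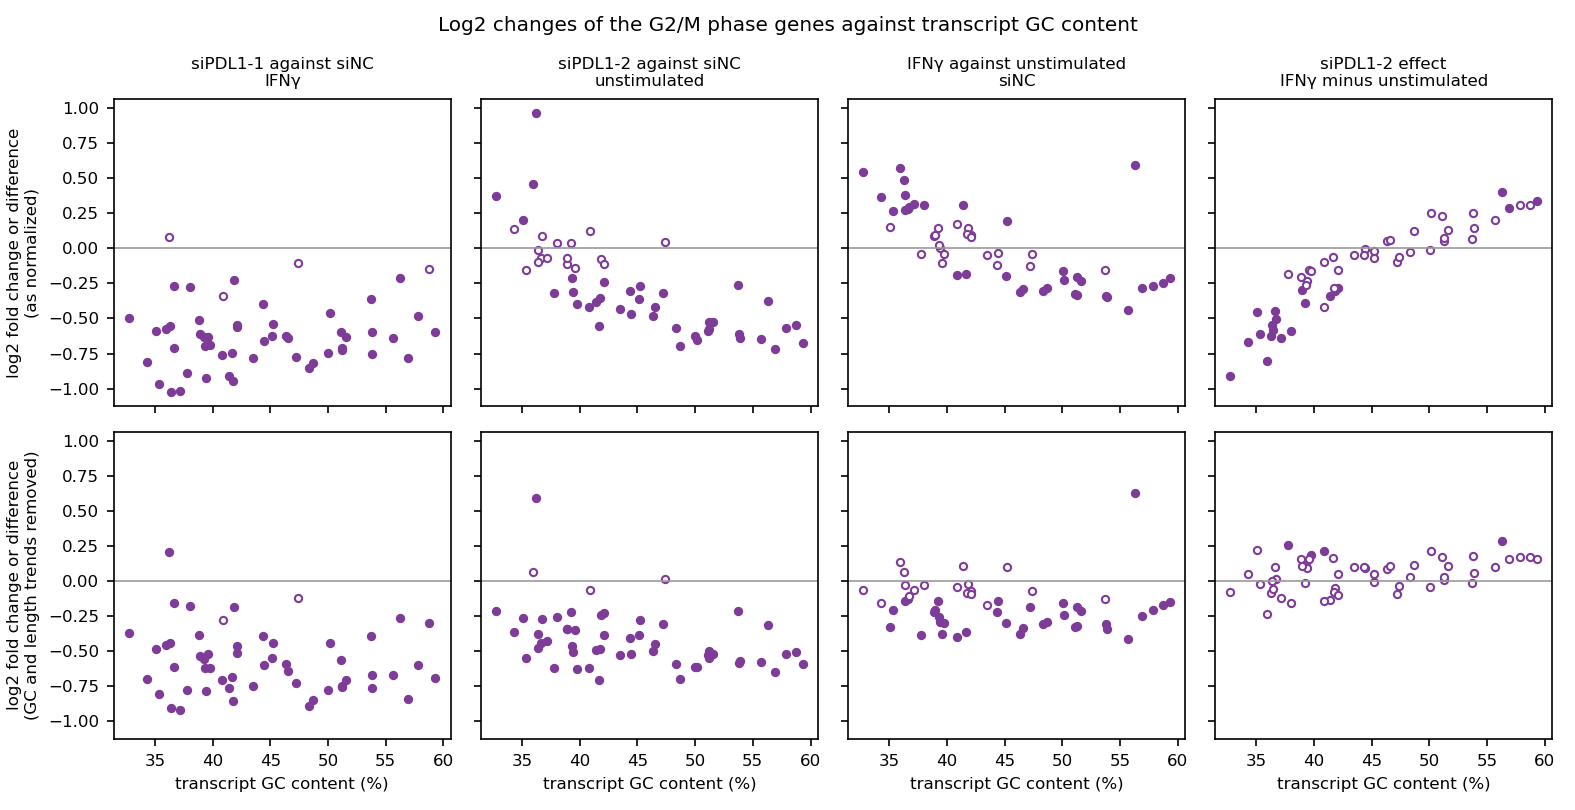
Log2 changes (y axis) of the 54 members against the GC content of the transcript (x axis, percent) for 4 comparisons, as normalized (top) and with the GC content and length trends of each library removed (bottom). Filled points passed FDR < 0.01. The slopes in the 3 right-hand columns are absent in the lower row, while the decrease with siPDL1-1 in the left-hand column is in both rows.

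Other cell-cycle genes were compared from lists that do not contain the members. The first list is of the same part of the cycle as the members. Of 45 other mitotic genes, 41 fell and none rose with siPDL1-1 in unstimulated cells (median -0.49) and 41 fell after IFNγ (median -0.62). With siPDL1-2, 26 fell and 2 rose (median -0.26), and after IFNγ 33 fell and 1 rose (median -0.38). The shares of all genes called lower were 8.99% and 12.2% with siPDL1-1, and 11.9% and 9.75% with siPDL1-2. The shares called higher were 9.8% and 11.6% with siPDL1-1, and 16.5% and 8.6% with siPDL1-2. The counts of other mitotic genes that rose were below these shares. CCNB1, the main partner of CDK1, was 171 and 174 CPM in unstimulated siNC, 113 and 114 CPM with siPDL1-1, and 121 and 119.7 CPM with siPDL1-2. The polo-like kinase PLK1 gave -0.62, -0.52, -0.81 and -0.38. The motor KIF4A and the cyclin CCNA2 fell most with siPDL1-1 (-1.05 and -0.93, then -1.24 and -1.16 after IFNγ) and less with siPDL1-2 (-0.39 and -0.30, then -0.42 and -0.53).

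The 43 S-phase genes had smaller medians than the G2/M phase genes. With siPDL1-1, 17 fell and none rose without stimulation and 16 fell and 1 rose after IFNγ (medians -0.17 and -0.17), against 8.99% of all genes lower and 9.8% higher, then 12.2% and 11.6%. With siPDL1-2, 8 fell and 3 rose, and 4 fell and 4 rose (medians -0.07 and -0.06). Among all genes, siPDL1-2 lowered 11.9% and raised 16.5% without stimulation and lowered 9.75% and raised 8.6% after IFNγ, so that the S-phase counts with siPDL1-2 after IFNγ were near the share of all genes and the 3 that rose without stimulation below it. MCM7, a subunit of the replicative helicase, was called lower in all 4 (-0.64, -0.49, -0.57 and -0.18), and the sliding clamp PCNA was called higher with siPDL1-2 in both states (0.27 and 0.41).

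**Figure D5:**
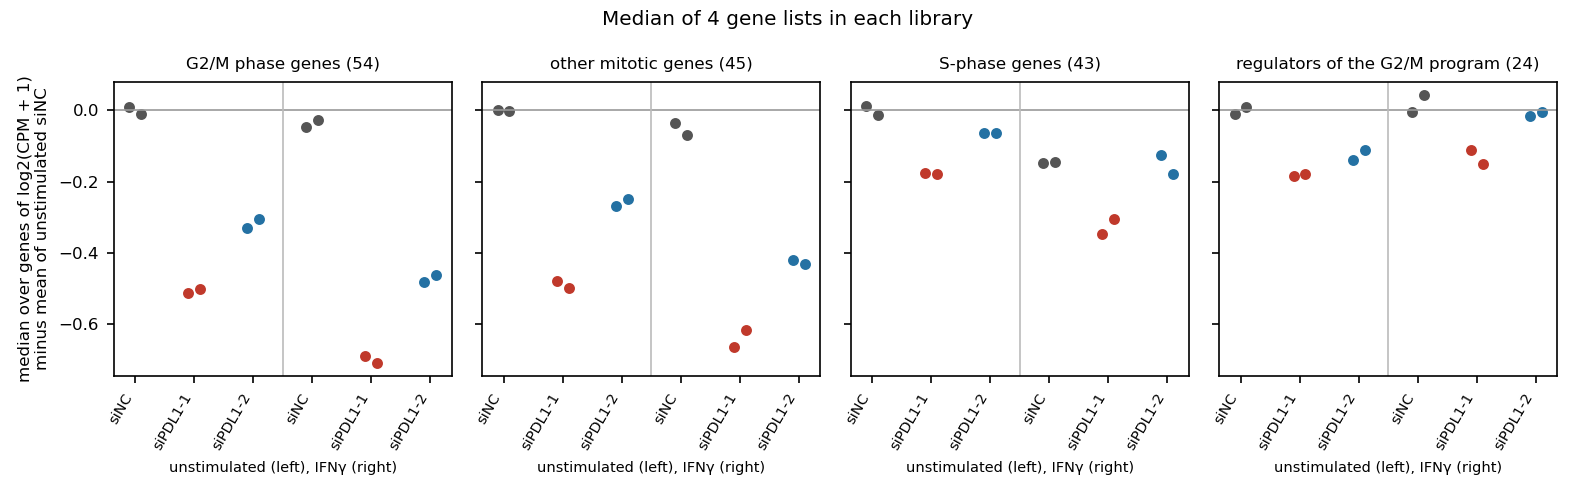
Median over the genes of 4 lists of log2(CPM + 1) minus the mean of unstimulated siNC, for each library (1 point each), unstimulated on the left and IFNγ on the right. In the G2/M and other mitotic lists the order from siNC through siPDL1-2 to siPDL1-1 is the same in both states with no overlap, and the other 2 lists span a narrower range.

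Of 24 regulators of the program, siPDL1-1 lowered 8 and raised 1 without stimulation and lowered 6 after IFNγ, and siPDL1-2 lowered 8 and raised 5, then lowered 5 and raised 2. The 5 and 2 raised were near the 16.5% and 8.6% of all genes raised by siPDL1-2. The 1 raised by siPDL1-1 without stimulation was below the 9.8% of all genes raised there. For the lowered counts the shares of all genes were 11.9% and 9.75% with siPDL1-2 and 8.99% and 12.2% with siPDL1-1. E2F1, the activator of the G1/S genes, was 49.5 and 49.6 CPM in unstimulated siNC, 23.6 and 22.5 CPM with siPDL1-1, and 27.9 and 27.5 CPM with siPDL1-2 (-1.07 and -0.82, then -0.80 and -0.30 after IFNγ). FOXM1, the activator of the G2/M genes, was called lower with siPDL1-2 (-0.31 and -0.20) and was at -0.10 and -0.14 with siPDL1-1. MYBL2, which encodes B-MYB, was called lower with siPDL1-1 in unstimulated cells at -0.17 and was not called elsewhere. CDKN1A, the CDK inhibitor p21, was called higher with siPDL1-2 (0.38 and 0.47) and was at -0.09 and 0.04 with siPDL1-1.

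Type I interferon-response genes moved with siPDL1-1. Of 20 such genes, 13 rose without stimulation and 18 after IFNγ (medians 0.73 and 3.05), against 9.8% and 11.6% of all genes. Their summed level after IFNγ was 5795 and 5697 CPM with siPDL1-1, against 669 and 641 CPM with siNC and 689 and 716 CPM with siPDL1-2. Without stimulation the sums were 182 and 181, 116 and 120, and 106 and 106 CPM. With siPDL1-2, 1 of the 20 rose and 2 fell without stimulation, and 3 rose and 5 fell after IFNγ. The counts without stimulation were at or below the shares of all genes (16.5% higher and 11.9% lower), and those after IFNγ compare with 8.6% and 9.75%. The part of this response in the changes of the G2/M phase genes was not tested.

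The members with and without a CHR element both had negative medians. The 35 that hold TTTGAA or TTCGAA in the window had median log2 fold changes of -0.51 with siPDL1-1 and -0.32 with siPDL1-2 in unstimulated cells and -0.63 and -0.42 after IFNγ. For the 10 with neither, among them KIF2C, TACC3 and LBR, the medians were -0.43, -0.07, -0.54 and -0.43. A match of letters does not show that a factor binds there, and these medians are descriptions.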

How the data were processed

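Poly(A) RNA from the 12 U251 libraries was measured by RNA-seq. Per the methods, the authors trimmed and mapped the reads to GRCh38 (Ensembl) in CLC Genomics Workbench 22.0.2, counted both strands, and normalized. The signal values are the deposited normalized CPM, of which 100% were whole multiples of 1 read (tolerance 0.02 reads), and the authors' scaling equalled edgeR's TMM factors (0.959 to 1.036). Recovered reads on genes ranged from 17101069 to 55657393 per library, so that 1 read was 0.0187 to 0.0586 CPM.

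Genes were filtered with filterByExpr (minimum count 10, minimum total 15), which kept 17982. Log2(CPM + 1) was fitted with limma (trend, robust) over 6 groups of 2 libraries, and the pseudocount makes changes of low genes smaller. Calls used FDR < 0.01. The edgeR quasi-likelihood and DESeq2 Wald tests on recovered reads, and the other alternatives in the closing section, were compared.

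The members and lists were chosen with earlier results of these data known. Named genes are the extremes of each role, 11 fixed anchors, members moving against the rest, and up to 10 called members per difference. Of 54 members, 28 overlap another gene, and in 9 the overlapping gene exceeds 10% of the member's level. Transcript GC content came from GENCODE canonical transcripts. Windows came from RefSeq. On simulated data for siPDL1-1 against siNC after IFNγ, a log2 change of 1 was given to 200 of 17982 genes. Of these 143 were recovered, among them 130 of the 132 above 5 CPM, and 4 other genes were called. Smaller changes, such as the medians of the members, were not simulated, so their recovery is not known. Replicates were checked for duplication (mean chi-square 1.85 to 7.76). Python 3.11.15, numpy 2.4.6, pandas 2.3.3, matplotlib 3.10.9, R 4.3.3, limma 3.58.1, edgeR 4.0.16 and DESeq2 1.42.0 were used.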

Additional observations from a re-analysis of the deposited data

Results flagged for a closer look

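In 20 members the siPDL1-2 effect differed between IFNγ-stimulated and unstimulated cells by limma's test of the difference itself (FDR < 0.01). The differences in log2 fold change were -0.91 for G2E3, -0.80 for ANP32E, -0.67 for KIF20B, -0.64 for GAS2L3, -0.63 for HMMR, -0.61 for CDK1, -0.59 for LBR, -0.58 for TTK, -0.55 for ECT2, -0.51 for CKAP2, -0.45 for CENPE, -0.44 for SMC4, -0.39 for KIF11, -0.34 for CKS2, -0.31 for CBX5, -0.29 for TOP2A, -0.29 for NUSAP1, 0.28 for CDC20, 0.33 for TUBB4B and 0.40 for PSRC1. The calls of ANP32E, CBX5, CDC20, CKS2, NUSAP1, PSRC1, SMC4 and TUBB4B were lost when 1 library was left out, that of PSRC1 without siPDL1-2 unstimulated replicate 2. Of the 20, PSRC1 was also called with the GC content and length trends removed (0.29).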

How the results depend on the processing

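The total counts of members called with each siRNA against siNC, lower and higher together, were within 1.5 times of the values given under every alternative except the fold change threshold: 45 to 51 of 49 for siPDL1-1 and 32 to 38 of 38 for siPDL1-2 without stimulation, and 45 to 50 of 50 and 45 to 52 of 49 after IFNγ, when 1 library was left out. With a fold change above 1.5 the totals were 15, 10, 35 and 9. The members called higher were fewer and their count depended on single libraries: without stimulation the 1 with siPDL1-1 became 0 without siNC or siPDL1-1 unstimulated replicate 2, and the 4 with siPDL1-2 became 1 to 4 with 1 library left out, 2 with edgeR, DESeq2 size factors or no filter, 3 with the DESeq2 Wald test, 5 with 3 groups fitted alone and 1 with the GC content and length trends removed. After IFNγ the 1 with siPDL1-2 became 0 with 3 groups fitted alone and without siNC or siPDL1-2 IFNγ replicate 1. For siPDL1-1 against siPDL1-2 the fold change threshold gave 5 members without stimulation and 0 after IFNγ. The latter 27 became 42 at FDR < 0.05, 7 with 3 groups fitted alone, 42 with the GC content and length trends removed, and 15 to 28 with 1 library left out. The former 25 became 11 with the trends removed and 19 to 28 with 1 library left out. For IFNγ against unstimulated cells the fold change threshold left 1 member in each siRNA group, and leaving out 1 library gave 16 to 36 with siNC, 22 to 37 with siPDL1-1 and 5 to 32 with siPDL1-2, which fell to 15 with no filter. For the siPDL1-1 difference between states the count of 0 became 1 with DESeq2, 6 at FDR < 0.05, 4 with the trends removed and 0 to 7 with 1 library left out (7 without siPDL1-1 IFNγ replicate 2). For the siPDL1-2 difference the count of 20 became 7, 31 and 4 under the fold change threshold, FDR < 0.05 and the trends removed, and 13 to 26 with 1 library left out. With those trends removed the sign turned for G2E3 (-0.21) and CENPE (-0.26) with siPDL1-2, for CDK1 (-0.21) and TOP2A (-0.20) with IFNγ in siNC, for CDK1 (-0.36) with IFNγ in siPDL1-1, and for KIF20B (0.049), CKAP2 (0.013) and ECT2 (0.0032) in the siPDL1-2 difference. Apart from the removal of these trends, no alternative turned the sign of a called value of a gene named for a comparison. With replicate number as a block, 50, 37, 50 and 48 members were called in the siRNA comparisons with siNC. The numbers did not pair the samples, since same-numbered libraries deviated together (r above 0.1) in 2 of 15 group pairs. The block changed no count of calls by over 1.5 times. With 2 libraries a group, changes near the spread between replicates could not be resolved.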
